A study of Mus musculus with 6 samples.

Results

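The immediate early genes described here are 10 mouse genes that code for transcription factors and feedback proteins: Jun, Jund, Ier2, Ier3, Ier5, Klf2, Klf4, Klf10, Btg2 and Dusp1. They were taken as the probes to which the platform annotation gives exactly 1 of these symbols. That gave 14 probes for 10 of 10 symbols, out of 6609 probes with 1 symbol and 13872 probes in all. Klf10 had 3 probes, Jun and Btg2 had 2 each, and the other 7 genes had 1. All 14 probes had a measured value on all 6 arrays.

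The arrays were spotted with 2 channels each. Every array set total RNA of mouse skeletal muscle against the same reference RNA, called Pre, from control muscle. The sham group carried an implanted pacer that was not switched on, and this muscle was collected when the 0 h group was. The other 5 groups were stimulated for 3 h through the implanted pacer and sampled 0 h, 1 h, 3 h, 8 h and 24 h after stimulation ended. The labels give no strain, age, muscle name or number of mice. Each group had 1 array, so there was no replicate check, and no p-value was computed. Because sham has 1 time, pacing and elapsed time cannot be told apart at 1 h and later.

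Values are log2 ratios to Pre, centred on the median of each array, and the ratio was read as sample over Pre. The dyes are not in the labels, so every direction below rests on that reading. Values given in time order run 0 h, 1 h, 3 h, 8 h, 24 h. No signal levels were given, so levels of different genes were not compared. In whole muscle RNA, fewer cells of a type and less RNA per cell cannot be told apart. The arrays differed in spread, with robust standard deviations (SD) from 0.176 at 1 h to 0.495 in sham, and the share of probes measured ran from 87.3% to 95.2%. The only spread that could be computed was that between probes of 1 gene on 1 array, pooled over genes. This probe SD ran from 0.23 at 1 h to 0.46 at 3 h in log2 units. It covers probes, not animals. It is not the error of a difference of 1 probe between arrays, so comparisons with it below give only a rough scale. Skeletal fibre markers had probes for 9 of 10 genes, with a median of -0.03 against Pre in sham, but ratios cannot show whether a marker is present.

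Immediate early genes are transcribed within minutes of a stimulus without new protein synthesis. Many code for transcription factors that switch on later genes, and others code for proteins that end the signal. In contracting muscle they are known as an early layer of the response to calcium and stress kinase signals. Their mRNAs are usually short-lived.

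Against sham, 1 of the 14 probes was at least 2-fold higher at 0 h, 1 h, 3 h and 8 h, in each case the same Btg2 probe. At 24 h there were 2, that Btg2 probe and 1 Klf10 probe. The share of members at least 2-fold higher was 7.14% at the first 4 of these times and 14.3% at 24 h. Among all probes with 1 symbol, the corresponding shares in time order were 4.62%, 1.55%, 2.32%, 2.58% and 4.25%. A count of 1 in 14 is close to these backgrounds, so the counts say little about the genes as a group. No member probe was 2-fold lower than sham, against 4.08%, 0.782%, 1.10%, 2.74% and 4.47% of all probes at the same times. The median member probe stood within 0.10 of sham at each time, and the median of the 10 gene values was 0.08, 0.04, 0.02, 0.04 and 0.10 from 0 h to 24 h. Over all genes these medians were 0.05, 0.03, 0.02, 0.06 and 0.08.

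**Figure D1:**
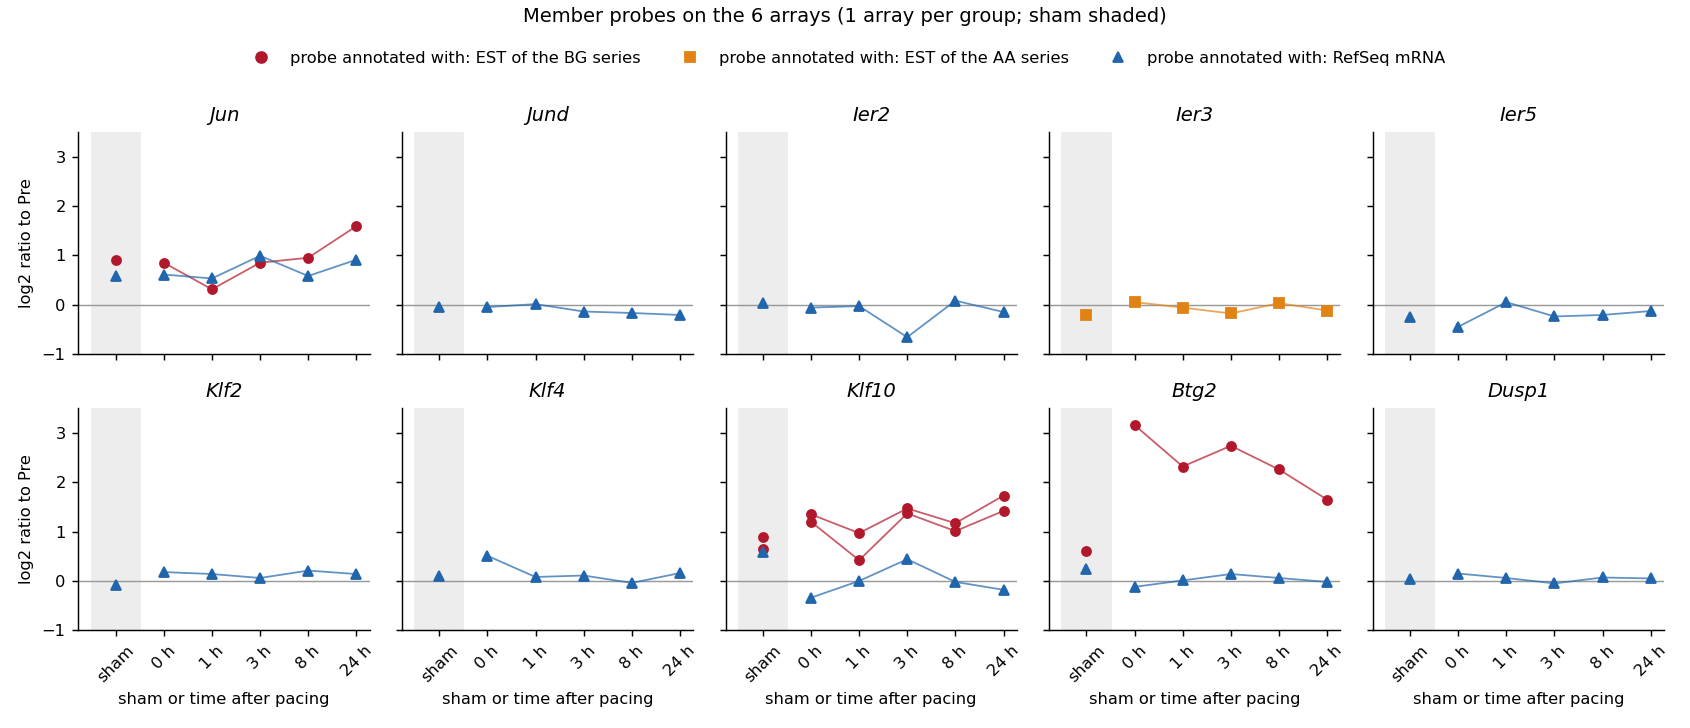
Log2 ratio to Pre (vertical axis) of each member probe in sham (shaded) and at 0 h, 1 h, 3 h, 8 h and 24 h after pacing (horizontal axis, not to scale in time), 1 panel per gene and 1 array per group. Points are single probes, with colour and shape for the kind of accession in the annotation; 1 Btg2 probe reaches 3.16 at 0 h, the other stays between -0.12 and 0.25.

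Against Pre, 3 probes were at least 2-fold higher at 0 h, 3 h and 8 h, 1 at 1 h and 4 at 24 h, all from Btg2, Klf10 and Jun; in sham there were 0. The background shares in time order were 1.83%, 0.826%, 3.60%, 2.02% and 4.99%, and in sham 2.51%. No member probe was 2-fold below Pre on any array; the background shares there were 0.976%, 0.243%, 2.94%, 1.23% and 2.85% in time order and 2.57% in sham. The 3 probes at 0 h, 3 h and 8 h make 21.4% of the members, and the 4 at 24 h make 28.6%. These probes come from 3 genes, so they are not independent of each other.

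Btg2 codes for an antiproliferative protein that recruits the machinery removing poly(A) tails from mRNA, and it is induced by growth factors and by p53. Its 2 probes gave different pictures. Probe 9843, annotated with an expressed sequence tag (EST, a single read of a cDNA clone), stood at a log2 ratio to Pre of 0.61 in sham and, in time order after pacing, at 3.16, 2.32, 2.74, 2.26 and 1.65. All 5 paced values were above sham, and the highest was the time-matched one. Relative to sham this probe was 5.85-fold, 3.27-fold, 4.36-fold, 3.12-fold and 2.05-fold higher in time order. It ranked 4 of 5944 measured probes at 0 h and 4 of 6171 at 1 h, and 65 of 5932 at 24 h.

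Probe 12083, annotated with the RefSeq mRNA of Btg2, stood at 0.25 in sham and, in time order, at -0.12, 0.01, 0.14, 0.06 and -0.02. All 5 paced values lay below sham, by 0.11 to 0.38 in log2 units. By sign, the probes thus went opposite ways from sham at every time. The differences of probe 12083 were all below the probe SD of 0.43 on the sham array, so its direction is not settled.

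In order of level, the EST probe of Btg2 stood highest at 0 h, then 3 h, 1 h, 8 h, 24 h and sham. The steps from 0 h to 3 h (0.42), 3 h to 1 h (0.41) and 1 h to 8 h (0.07) were smaller than the larger probe SD of the arrays concerned. The steps from 8 h to 24 h (0.61) and from 24 h to sham (1.04) were larger than the probe SD of 0.45. This order depends on the spread of the arrays. When each array was scaled to the same robust SD, the probe stood at 0.43 in sham and at 3.74, 4.55, 2.13, 3.23 and 1.43 in time order, so that 1 h was then highest. The difference from sham at 24 h was 1.04, just past 2-fold, and 1.00 after scaling, where it no longer counted as 2-fold.

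The gap between the Btg2 probes was 3.29 at 0 h, a 9.75-fold ratio, and 0.36 in sham. After 0 h it was 2.31, 2.60, 2.19 and 1.67 in time order. Of the 610 genes with 2 measured probes at 0 h, 2 had a gap at least that large, Btg2 included, and the median gap was 0.25. At 1 h Btg2 had the largest gap of 643 genes. In sham, 378 of 666 genes had a gap as large or larger, so there the Btg2 probes were no farther apart than most. The mean of both probes was 2.12-fold sham at 0 h with a probe SD of 2.07 in log2 units, and this mean describes neither probe.

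**Figure D2:**
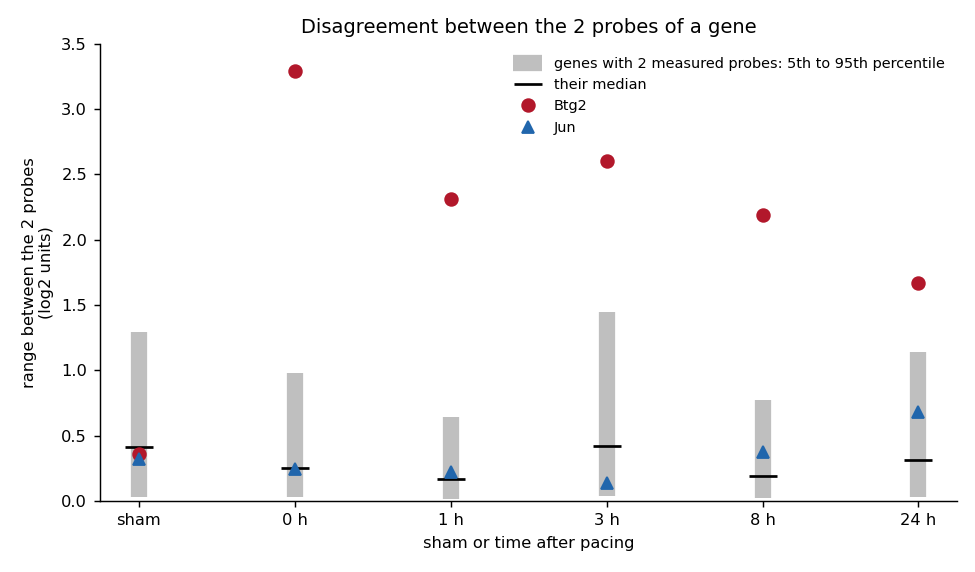
Gap between the 2 probes of a gene in log2 units (vertical axis) on each of the 6 arrays (horizontal axis). Grey bars run from the 5th to the 95th percentile of genes with 2 measured probes, with their median as a line; the Btg2 gap is 0.36 in sham and above the 95th percentile on all 5 paced arrays, while that of Jun lies inside the bar on each array.

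The Btg2 promoter was set beside that of Dusp1, because both hold the full cAMP response element TGACGTCA, the palindrome bound by the CREB family. Only the EST probe of Btg2 gave values far from those of Dusp1. The RefSeq mRNA probe of Btg2 ran from -0.12 to 0.25 and the Dusp1 probe from -0.05 to 0.15. Sequences are from RefSeq (GRCm38.p6), with the 250 bases before the gene start on the gene's strand and the element in capitals. The Btg2 stretch is chr1:134079156-134079405 on the minus strand, and the Dusp1 stretch is chr17:26508473-26508722 on the minus strand.
Btg2: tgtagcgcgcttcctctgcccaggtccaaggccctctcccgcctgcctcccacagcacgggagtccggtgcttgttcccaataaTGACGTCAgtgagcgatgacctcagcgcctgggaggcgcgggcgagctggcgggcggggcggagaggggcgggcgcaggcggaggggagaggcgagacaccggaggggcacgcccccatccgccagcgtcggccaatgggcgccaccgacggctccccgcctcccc
Dusp1: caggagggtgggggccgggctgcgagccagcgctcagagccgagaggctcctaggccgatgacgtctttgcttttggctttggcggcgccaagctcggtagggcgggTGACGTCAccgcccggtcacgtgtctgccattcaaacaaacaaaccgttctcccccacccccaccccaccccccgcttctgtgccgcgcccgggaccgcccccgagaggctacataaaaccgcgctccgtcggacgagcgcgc
The element lies 166 to 159 bases before the start of Btg2 and 143 to 136 bases before that of Dusp1. Of 32851 promoters in the table, 1.55% hold this element in the same window. A match describes the letters and is not evidence of binding.

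Dusp1 codes for a nuclear phosphatase that switches off MAP kinases, and its transcript is a standard feedback response to stress. Its single probe stood at 0.03 in sham and at 0.15, 0.06, -0.05, 0.07 and 0.05 in time order. Its largest difference from sham was 0.12, at 0 h. All 6 values lay within 0.15 of Pre, the smallest range of the 14 probes at 0.20. No replicate gives the error of a difference from sham, so a small change in Dusp1 was not detectable here.

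Klf10 codes for a zinc finger transcription factor of the Krüppel-like family that is induced early by TGF-beta. Its first EST probe, 8924, stood at 0.65 in sham, then at 1.35, 0.97, 1.47, 1.17 and 1.73 over the paced arrays in time order. The other EST probe, 9115, stood at 0.89 in sham, then at 1.20, 0.42, 1.37, 1.01 and 1.42. Both EST probes were highest at 24 h and lowest among the paced arrays at 1 h, but this order turned with the spread of the arrays. After scaling, probe 8924 was highest at 1 h (1.91) and its lowest paced value was at 3 h (1.14). Probe 9115 was then highest at 8 h (1.45) and its lowest paced value was still at 1 h (0.83). Probe 8924 was above sham at 5 of 5 times, by 2.12-fold at 24 h and 1.63-fold at 0 h. Probe 9115 was above sham at 4 of 5 times and at 1 h stood 0.46 below it. After scaling it stood 0.21 above sham at 1 h instead.

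The Klf10 probe annotated with the RefSeq mRNA, 11712, stood at 0.58 in sham, then at -0.34, 0.00, 0.44, -0.02 and -0.18. It was below sham at all 5 times, with differences of -0.92, -0.58, -0.15, -0.60 and -0.77 in time order. All 5 differences share the sham value of 0.58, which was its highest value. After scaling the differences were -0.81, -0.41, -0.07, -0.43 and -0.57. In sham the 3 probes lay within 0.30 of each other, while at 0 h they spanned 1.69 and at 24 h 1.91. Of 197 genes with 3 measured probes at 0 h, 4 spanned as much, Klf10 included. At 1 h, 8 h and 24 h these counts were 12 of 209, 16 of 228 and 11 of 206. At 3 h Klf10 spanned 1.03, and 58 of 197 genes spanned as much, with a median of 0.78. The mean of the probes, 0.03 above sham at 0 h, was 0.51 above without the RefSeq mRNA probe. For probe 8924 no step between neighbours in the order of the arrays exceeded the probe SD, so neighbouring arrays were not separated by that measure, while sham and 24 h lay 1.08 apart. After scaling, the log2 differences of this probe from sham were 1.15, 1.46, 0.69, 1.22 and 1.04 in time order, past 2-fold at all times but 3 h.

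Jun codes for the core AP-1 subunit, which pairs with Fos or ATF proteins on AP-1 and cAMP response elements. Its EST probe, 879, stood at 0.91 in sham and at 0.85, 0.31, 0.85, 0.95 and 1.59 in time order after pacing. The RefSeq mRNA probe, 3525, stood at 0.58 in sham and at 0.61, 0.53, 0.99, 0.58 and 0.91 after pacing. Both probes were above Pre on all 6 arrays, including sham. At 0 h they were level with sham, at -0.06 and 0.03. At 24 h they stood 0.68 and 0.33 above sham, a mean difference of 0.50 or 1.42-fold with a probe SD of 0.25. That mean was the largest of the 5 times for Jun but was below 2-fold. Probe 3525 alone was farther above sham at 3 h, by 0.40. After scaling it was farthest above sham at 1 h, by 0.63, against 0.38 at 24 h. The Jun probes stayed within 0.68 of each other on all 6 arrays. After scaling, probe 879 stood 0.37 above sham at 0 h, 0.72 above at 8 h and 0.74 above at 24 h. Its position against sham at 0 h, and how far 24 h stood apart, thus depended on the spread of the arrays.

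Jund codes for an AP-1 subunit that many tissues make without stimulation. Its probe was at -0.04 in sham and at -0.05, 0.01, -0.14, -0.17 and -0.21 in time order. All 5 differences from sham were 0.17 or less in size. The times therefore lay within the probe SD of sham.

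Klf2 and Klf4 code for zinc finger factors of the same family as Klf10; both are known from the vessel lining, where blood flow induces them. Klf2 was at -0.09 in sham and, over the paced arrays in time order, at 0.18, 0.14, 0.06, 0.21 and 0.14. Its 5 paced values were all above sham, by 0.15 to 0.30, less than the probe SD of 0.43 on the sham array. Klf4 was at 0.11 in sham, then at 0.51, 0.08, 0.11, -0.04 and 0.16. Its value at 0 h, 1.32-fold sham, was the highest of its 6, and the difference of 0.40 was again below that probe SD. Of 12 endothelial markers, 6 had a probe. Their median against sham was 0.10 at 0 h (5 measured, from -0.82 to 0.49) and between -0.08 and 0.09 at later times. At 3 h the markers ran from -0.20 to 1.19, the highest being Cdh5, which lacked a value for 1 of its 2 probes there. At 24 h the markers ran from -0.77 to 0.16. Their part in the Klf2 and Klf4 values was not tested.

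Klf2 and Klf4 were also the members whose upstream bases hold the EGR site GCGGGGGCG, the element read by the early growth response factors. The stretches around it are shown to let the sites be compared, with the site in capitals and read on the gene's strand. They are chr8:72318838-72318896 on the plus strand for Klf2 and chr4:55532636-55532694 on the minus strand for Klf4, both GRCm38.p6 from RefSeq.
Klf2: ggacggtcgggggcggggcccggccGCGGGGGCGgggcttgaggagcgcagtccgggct
Klf4: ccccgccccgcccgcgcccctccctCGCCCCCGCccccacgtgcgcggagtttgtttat
In Klf4 the site lies on the opposite strand, so the capitals show its reverse complement. The site starts 199 bases before the gene start in Klf2 and lies 194 to 186 bases before it in Klf4. Of all promoters in the table, 2.57% hold the site. Promoters were listed for 8 of the 10 genes, all but Ier2 and Klf10. The AP-1 site TGANTCA, the CArG box of serum response factor and the TATA box TATAAA had no match in these 8 windows on either strand; 6.75%, 1.47% and 12.4% of all promoters hold them.

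The Ier genes were named as immediate early response genes. Ier2 and Ier5 code for related nuclear proteins, and Ier3 codes for a stress-induced protein that affects cell survival. Ier2 was at 0.04 in sham and at -0.06, -0.03, -0.66, 0.08 and -0.15 in time order. The 3 h value was the lowest of them, at 0.617 of the sham level. The difference of -0.70 was larger than the probe SD of 0.46 on that array, which had the largest probe SD. Counted from the highest, Ier2 ranked 5421 of 5979 measured probes at 3 h, so many probes lay lower there. Ier3 was at -0.21 in sham, then at 0.05, -0.06, -0.18, 0.03 and -0.12. Ier5 was at -0.25 in sham, then at -0.45, 0.05, -0.24, -0.21 and -0.13. Ier3 was above sham at 5 of 5 times, by at most 0.26, and Ier5 at 4 of 5, by at most 0.30. Each of these differences was below the probe SD of the sham array.

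Over the 7 genes with 1 probe, 40 of 42 values lay within 0.5 of Pre, and the differences from sham ran from -0.70 to 0.40. The exceptions were Ier2 at 3 h and Klf4 at 0 h. The share of all probes within 0.5 of Pre was not computed. With robust SDs from 0.18 to 0.49, most probes lie that close, so the count says little about these genes. They were read by RefSeq mRNA probes or, for Ier3, an EST probe. In Btg2 and Klf10 the RefSeq mRNA probe stayed below sham while EST probes of the same gene were past 2-fold above Pre.

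**Figure D3:**
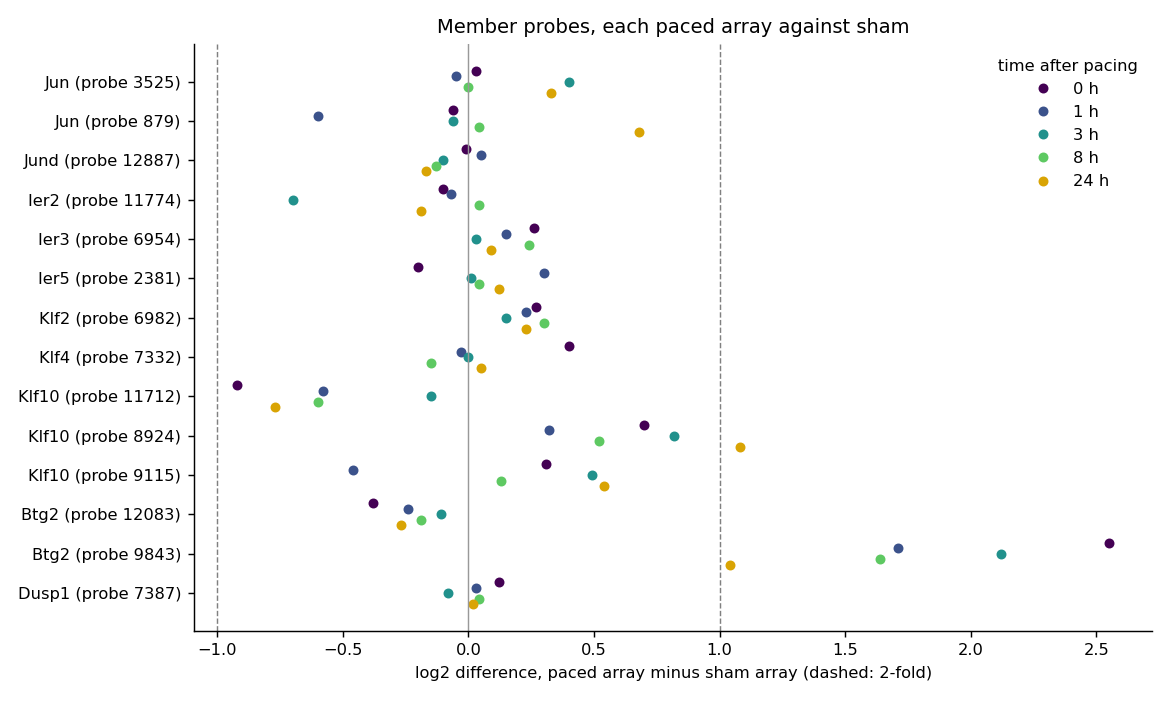
Log2 difference of each paced array from the sham array (horizontal axis) for the 14 member probes (vertical axis, gene and probe number), coloured by time after pacing; dashed lines mark 2-fold. The EST probe of Btg2 lies beyond 2-fold at all 5 times, from 1.04 to 2.55, and no other probe does so except 1 Klf10 probe at 24 h.

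The member probes also differed by the kind of accession. The annotation ties 4 member probes to ESTs of the GenBank BG series, 1 to an EST of the AA series and 9 to RefSeq mRNAs. All 4 BG probes were at least 2-fold above Pre on some paced array, against 0 of 9 RefSeq mRNA probes and 0 of 1 AA probe. The BG probes come from Btg2, Klf10 and Jun alone, and most of the RefSeq mRNA probes from genes with no BG probe. Kind of probe and gene are thus mixed in these counts. The 0 of 9 is near its limit: Jun probe 3525 reached 0.99 at 3 h, and after scaling it stood at 1.04 at 1 h, past 2-fold. Over the whole array, 9.07% of 2282 BG probes and 6.42% of 1137 RefSeq mRNA probes reached that. In genes with both kinds, the median difference, BG minus RefSeq mRNA probe, was -0.11 over 341 genes in sham, -0.01 over 312 genes at 0 h and 0.01 over 305 genes at 24 h. Genes with the BG probe at least 2-fold above the other numbered 6, 4, 16, 11 and 22 in time order, and those with the reverse 5, 2, 17, 3 and 15. In sham these numbers were 7 and 21. By the excess of the BG probe at 0 h, Btg2 ranked 1 and Klf10 ranked 3 of these genes. After 0 h the ranks in time order were 1, 1, 1 and 7 for Btg2 and 11, 18, 8 and 5 for Klf10. In sham they were 62 and 88. This split was chosen after the values had been seen, and what the spots of each kind hold was not tested.

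The mean of the 2 Btg2 probes spanned 1.09 over the 6 arrays, and no other member's gene value spanned 1 or more. Genes near that mean are given because the naming rule used gene values; that mean describes neither probe. Of 3180 genes with a value on all 6, the nearest were Pde4b, a cAMP phosphodiesterase gene, and Pnrc1, each with a root mean square difference of 0.24, and Slc35f5 with 0.29. For the EST probe alone, chosen after its values were seen, the nearest of 4819 probes were those of Lrrc58 (0.55), Pdk4 (0.68) and Ubb-ps (0.69). These distances exceed the probe SD of every array. The nearest probes to Klf10 probe 8924 were of H3f3b, a histone gene, at 0.11, Psmd4 at 0.21 and the Hsp70 gene Hspa8 at 0.23. For the Jun EST probe they were of Hspa8 at 0.18, Ybx3 at 0.19 and Hspa8 again at 0.20. All arrays share the Pre RNA.

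Of 111 other early, feedback and MAP kinase genes listed, 37 had a probe. Fos, Junb, Dusp6 and Zfp36 had none, so the usual AP-1 partners of Jun could not be described here, while Egr1 had a value on 5 arrays. At 0 h, 4 of the 34 measured were at least 2-fold above sham and 0 below, against 3.43% and 3.07% of all genes. The list median was 0.25, with 0.05 over all genes. The 4 were Sik1, the salt-inducible kinase gene, a CREB target, at 5.57-fold; Id1, an inhibitor of basic helix-loop-helix factors, at 2.31-fold; Rcan1, a calcineurin feedback inhibitor, at 2.18-fold; and Klf9, a relative of Klf10, at 2.07-fold. Id1 was at 0.27 against Pre at 0 h, with sham at -0.94, so its difference came mostly from a low sham value. Sik1 was also low in sham, at -1.03, which adds to its difference at every time. Against Pre it stood at 1.44, 0.81, 2.61, 1.16 and 1.06 in time order. Klf9 was at 1.26 at 0 h, -0.04 at 1 h and -0.36 at 3 h.

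At later times the counts above sham in time order from 1 h were 3 of 36, 2 of 35, 3 of 36 and 1 of 34, with 0 below in each. The background shares above sham were 0.865%, 1.43%, 1.79% and 3.09%, and those below were 0.676%, 0.992%, 1.87% and 2.89%. Sik1 was in each count, and Rrad, a small GTPase gene, joined it at 3 h at 2.02-fold. Id1 and Gadd45a, a stress gene that acts on the cell cycle, were the others at 1 h and 8 h. Gadd45a stood at 1.34 in sham, 2.78 at 1 h and 3.83 at 8 h, and was listed at exactly 0 at 0 h, 3 h and 24 h, which was treated as not measured.

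By role, the 8 feedback inhibitors measured had a median of 0.39 above sham at 0 h, with 7 above sham and Rcan1 past 2-fold. Over all genes the median was 0.05, with 1941 of 3586 above sham and 3.43% at least 2-fold higher. Against Pre, the feedback inhibitors had a median of -0.11 in sham and 0.24 at 0 h, with 0 past 2-fold at 0 h. The 4 measured relatives of Dusp1 differed: against sham at 0 h, Dusp4 was at 0.94, Dusp7 at 0.26, Dusp8 at 0.11 and Dusp16 at -0.09. Dusp4 was at -0.48 against Pre in sham and 0.46 at 0 h. For the 7 MAP kinase cascade genes the 0 h median was 0.04, and 0 were past 2-fold at any time. Atf4, a stress-response factor and possible Jun partner, stood at 1.00 in sham, 1.41 at 0 h and 1.84 at 8 h over 5 probes.

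**Figure D4:**
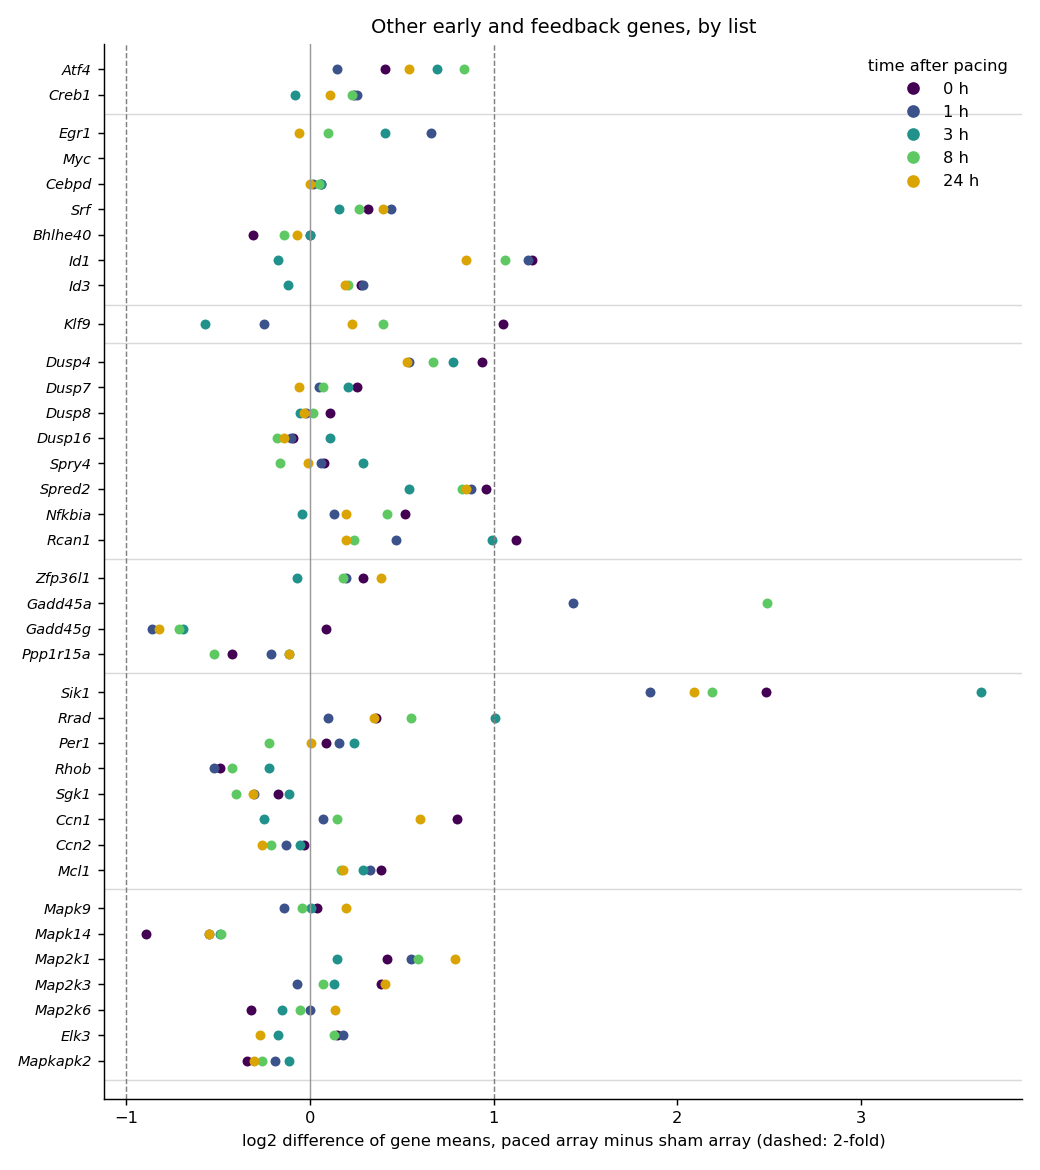
Log2 difference of gene means, paced minus sham (horizontal axis), for the other early, feedback and MAP kinase genes with a probe (vertical axis, in list order, lists parted by lines), coloured by time after pacing; dashed lines mark 2-fold, and a gene with no point, Myc, was not measured in sham. Sik1 lies at 1.85 or more at each time, with its sham value at -1.03 against Pre, and none lies beyond 2-fold below sham.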

How the data were processed

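The deposited table holds a log10 ratio for each of 13872 probes on each array. The log base was read from rounding residues in the values; dyes, centring and image analysis are not given in the sources used here. Per the labels, Pre was in channel 2 and the muscle RNA in channel 1. The authors' deposited log10 ratios were turned into log2 ratios, and the median of each array was subtracted. Exact zeros and values repeated within 1 of 48 equal runs of probes in ID order were treated as missing, a choice made with the values known. Empty cells were found in sham alone (485). The sham array also held 154 repeated values; whether it was processed differently is unknown.

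Probes with exactly 1 symbol in the platform annotation were used. All 14 member probes kept that symbol when matched by Entrez ID to RefSeq genes of GRCm38.p6. Gene values are means of measured probes, and called means at least 2-fold. The members, lists and naming rule (all members, listed genes past 2-fold, and the 3 nearest patterns of a member spanning 1 log2 unit) were chosen with earlier results of these data known. With 1 array per group no test was run; the number of arrays limits precision. Python 3.11.15, numpy 2.4.6 and pandas 2.3.3 were used, and the processing was tested on simulated data. Protein identity between members was planned and not analysed here. Alternatives covered zeros, centring, scaling, the probe summary and the fold.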

Additional observations from a re-analysis of the deposited data

How the results depend on the processing

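No paired analysis was possible because each group had 1 array, and leaving out an array leaves no comparison for its group. Centring each run of probes changed no count of member probes. Keeping zeros and repeated values, or no centring, changed 1 of them: 2 instead of 3 probes were past 2-fold above Pre at 8 h, where Klf10 probe 9115 moved from 1.01 to 1.00. Kept zeros put 1 other early gene below sham at 0 h, 3 h and 24 h, which is Gadd45a. Of 926 recomputed member values, 885 moved by less than the median probe SD of 0.38 and 41 by more, and no 2-fold value changed sign. Of 70 member differences from sham, 9 changed sign after scaling, the largest of them 0.46 in size, 2 after centring each run (at most 0.01), and 0 under the other options.

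Scaling arrays to a common spread put 2 member probes past 2-fold above sham at 0 h, 1 h and 8 h, 1 at 24 h, and above Pre 4 at 0 h, 3 at 1 h and 4 at 8 h. It put 3 instead of 4 other early genes above sham at 0 h, and 5, 1 and 4 at 1 h, 3 h and 8 h.

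With a 1.5-fold threshold, 2 member probes were above sham at 0 h and at 3 h, and 1 was below sham at each of the 5 times. The probe below was not the same throughout: Klf10 probe 11712 at 0 h, 8 h and 24 h, Jun probe 879 at 1 h and Ier2 at 3 h. Jun probe 879 also passed this threshold above sham at 24 h, at 1.6-fold. Shares over all probes at 1.5-fold were not computed. Against Pre, 4 member probes were above in sham, and 5, 2 and 5 in time order up to 3 h, with 1 below at 3 h. Of the other early genes 7, 5, 5, 7 and 5 were above sham in time order, with 1 below at each time. The median of the probes moved the Klf10 difference from sham to 0.55 at 0 h and 0.77 at 24 h. No signal over background was given, so its limits are unknown.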
